A study of Rattus norvegicus with 11 samples.

Results

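Cytochrome P450 enzymes (Cyp), glutathione transferases (Gst), UDP-glucuronosyltransferases of families 1 and 2 (Ugt1, Ugt2) and sulfotransferases (Sult) were examined in rat lung on Affymetrix arrays. The members were all probe sets whose only annotated gene symbol begins with one of these names, without Cyp1a1, Cyp1a2, Cyp1b1 and Cyp51. They numbered 107 probe sets for 97 genes, of 31042 probe sets tested. All rats were of the Dahl salt-sensitive strain and weighed 250 to 350 g, and whole lung was taken at 3.5 weeks, after its vessels had been perfused. The first group was kept at an inspired oxygen of about 9.5% and given SU5416, an inhibitor of the receptors of vascular endothelial growth factor (3 arrays, called hypoxia-SU5416 here). Another was kept at the same oxygen with vehicle (hypoxia, 4 arrays), and the remaining one in room air with vehicle (normoxia, 4 arrays). The groups used hold no rats given SU5416 in room air, so an effect of SU5416 alone and one that needs hypoxia cannot be told apart. A further group given sorafenib was not analysed here.

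These enzymes clear foreign compounds and many of the body's own lipids. P450 enzymes add oxygen to a substrate with electrons from the reductase Por, and transferases then attach glutathione, glucuronic acid or sulfate, which makes the product easier to export. In the lung, several P450 enzymes are concentrated in club cells, the secretory cells of the small airways, where they can also turn harmless compounds into toxic ones. Genes for several of the transferases are known targets of the aryl hydrocarbon receptor or of Nrf2, transcription factors that respond to foreign chemicals and to oxidants.

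Values are log2 signals as deposited, and array medians lay between 7.80 and 8.01. The lung label was borne out by the 10 alveolar type II cell markers, whose mean signal was 12.49 to 12.75 on all 11 arrays. RNA quality was uneven: the gap between the 3′ and 5′ beta-actin probe sets reached 2.24 for normoxia array 1 and 1.33 for normoxia array 2, while those of the remaining arrays lay between 0.51 and 0.87. The labels do not say whether each array came from a different animal, so p-values measure only the spread between these arrays. Each difference is the mean log2 signal of the first-named group minus that of the second, from a single limma fit of all arrays, with p-values adjusted over all probe sets. The 3 comparisons share arrays and are not independent of each other. A fall in signal from whole lung can mean fewer cells of a type or less RNA per cell, and these cannot be told apart.

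Of the 107 probe sets, 69 (64.5%) were above background on every array, against 71.6% of all probe sets; background was 5.72, the 95th percentile of 27 bacterial control probe sets. A further 26 were below it on every array. Detection was uneven between families. It was most frequent in P450 family 4, whose enzymes hydroxylate fatty acids and eicosanoids (11 of 12 probe sets above background on every array), and in the glutathione transferases (18 of 22). The P450 families 1 to 3, which handle most foreign compounds, had 19 of 31, and the other P450 families, which act on sterols, steroids, vitamin D and retinoids, had 12 of 18. The sulfotransferases had 6 of 15 and the glucuronosyltransferases 3 of 9. Some genes best known from liver or from steroid-making glands were below background on every array, with mean signals of 1.47 for Cyp3a2, 2.63 for Cyp17a1 and 4.41 for Sult2a1. Others of that kind averaged above it, such as Cyp2c11 at 7.55 and Cyp11a1 at 8.26.

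No member passed the test in any of the 3 comparisons. Between hypoxia-SU5416 and normoxia, 0 of 107 members were called at an adjusted p below 0.05 (0.0612% of all probe sets were called), and the lowest adjusted p among members was 0.125 (limma). Between hypoxia and normoxia there were likewise 0 calls (0.00644% of all), with a lowest adjusted p of 0.288. Between hypoxia-SU5416 and hypoxia there were 0 (0.0258% of all), with a lowest adjusted p of 0.442.

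Counts under looser rules were read against those of all probe sets. At an unadjusted p below 0.05, hypoxia-SU5416 against normoxia had 3 members higher (4.82% of all probe sets were) and 7 lower (7.57% of all), which is 9.35% of the members in either direction. Hypoxia against normoxia had 1 higher (3.33% of all) and 9 lower (7.64% of all), again 9.35% of the members. Hypoxia-SU5416 against hypoxia had 8 higher (4.02% of all) and 8 lower (3.45% of all), or 15% of the members against 7.47% of all probe sets. That last share was above the background and still held no call, and the count of 16 was 10 without hypoxia array 1, 9 without hypoxia-SU5416 array 1 and 7 without hypoxia-SU5416 array 2. The shares of all probe sets in those fits are not given here, so these lower counts cannot be set against a background.

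Members with no overlap of arrays between groups were counted as well. Hypoxia-SU5416 was separated from normoxia by 3 members that were higher (4.94% of all probe sets were) and 9 that were lower (6.97% of all). Hypoxia was separated from normoxia by 2 that were higher (2.05% of all) and 3 that were lower (4.08% of all). Hypoxia-SU5416 was separated from hypoxia by 9 that were higher (6.27% of all) and 5 that were lower (5.25% of all). As a share of the members these were 11.2%, 4.67% and 13.1%, all near the shares of all probe sets, 11.9%, 6.13% and 11.5%. The median member difference was -0.09 in hypoxia-SU5416 against normoxia, where all probe sets had -0.04. It was -0.07 in hypoxia against normoxia (all probe sets -0.04) and -0.01 in hypoxia-SU5416 against hypoxia (all probe sets 0.01).

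The precision of the arrays sets what these counts can show. The 95% confidence interval of the difference lay within a 2-fold change either way for 71 members in hypoxia-SU5416 against normoxia (66.4%, against 70.3% of all probe sets). In hypoxia against normoxia it did so for 75 (70.1%, against 73.4%), and in hypoxia-SU5416 against hypoxia for 72 (67.3%, against 72.8%). For the remaining members a 2-fold difference was not excluded by the interval.

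**Figure D1:**
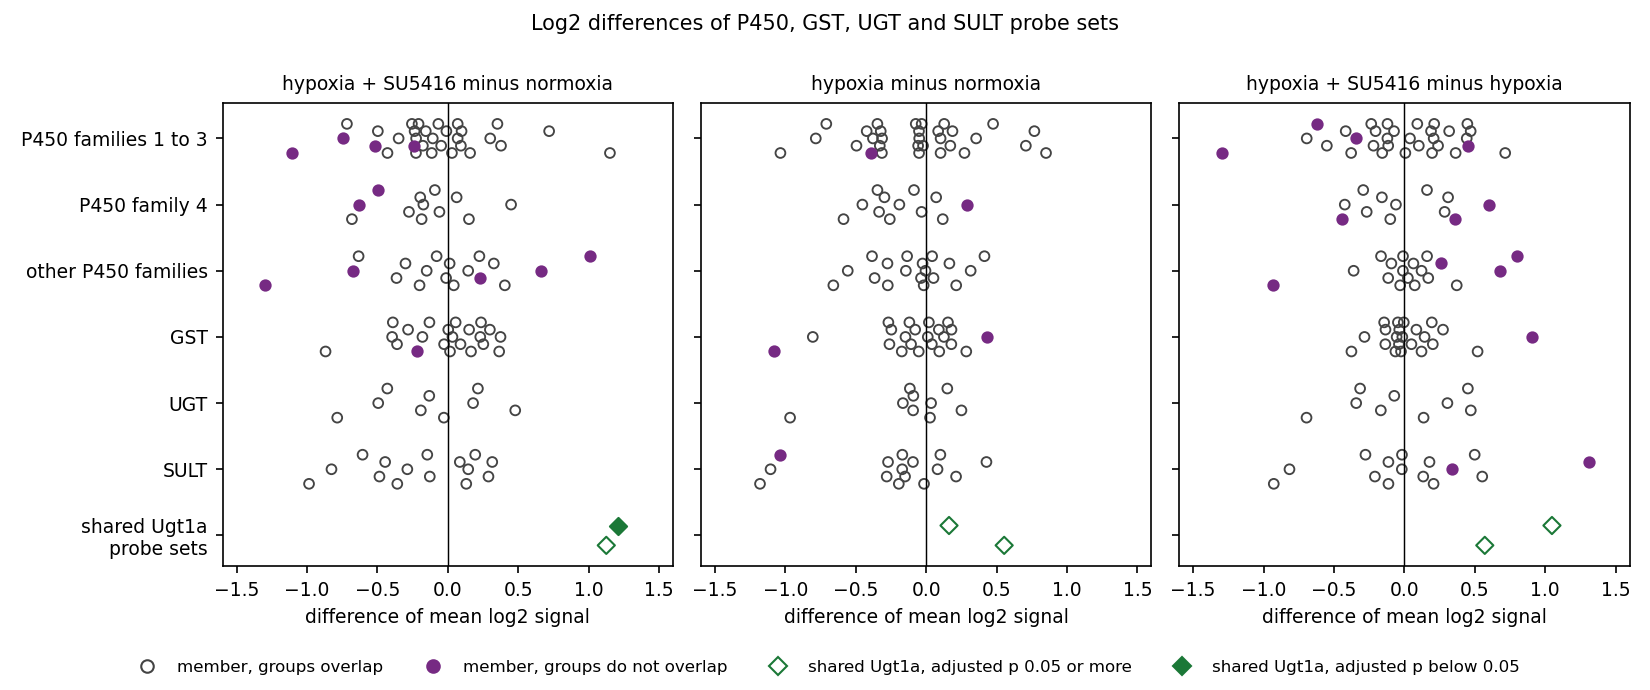
Difference of mean log2 signal (x axis) for each probe set, by enzyme family (rows) and comparison (panels); filled circles are members with no overlap of arrays, and diamonds are the 2 probe sets shared by the Ugt1a genes. No member was called, differences spread to both sides of 0 in every family, and 1 shared Ugt1a probe set was called in hypoxia-SU5416 against normoxia.

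Among the P450 enzymes of families 1 to 3, 4 of 31 probe sets were separated from normoxia in hypoxia-SU5416, and all 4 were lower: Cyp2a1, Cyp2e1, Cyp2d4 and Cyp2u1. That share, 12.9%, was near the 11.9% of all probe sets, of which 6.97% were lower and 4.94% higher. Cyp2d4, a P450 known from rat brain and other tissues, had signals of 8.94, 9.06 and 8.76 on hypoxia-SU5416 arrays, 9.10, 9.04, 8.96 and 9.06 on hypoxia arrays, and 9.56, 9.26, 9.44 and 9.49 on normoxia arrays. All 7 hypoxic arrays, with or without SU5416, lay below all 4 normoxia arrays. The difference from normoxia was -0.51 (SE 0.11, 1.43-fold lower, adjusted p = 0.125) in hypoxia-SU5416. In hypoxia it was -0.39 (SE 0.10, 1.31-fold lower, adjusted p = 0.288). These were the lowest adjusted p-values of any member in the comparisons with normoxia. A second probe set of Cyp2d4 overlapped between groups, with differences of -0.16 in hypoxia-SU5416 and -0.35 in hypoxia.

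Cyp2e1, which oxidises ethanol and small solvents, averaged lowest in hypoxia-SU5416. Its signals were 8.44, 7.99 and 8.21 on hypoxia-SU5416 arrays, 9.04, 8.75, 8.38 and 9.46 on hypoxia arrays, and 9.08, 9.16, 8.82 and 8.76 on normoxia arrays. Hypoxia-SU5416 lay below normoxia without overlap, and overlapped with hypoxia only through hypoxia array 3. The differences were -0.74 against normoxia (SE 0.24, 1.67-fold lower, adjusted p = 0.263) and -0.69 against hypoxia (SE 0.24, adjusted p = 0.555).

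Cyp2a1, a steroid hydroxylase of rat liver, was dim. Signals of 5.36, 5.31 and 4.43 on the hypoxia-SU5416 arrays were all below background. They stood against 6.53, 5.82, 5.87 and 7.09 on hypoxia arrays and 6.40, 5.60, 6.18 and 6.38 on normoxia arrays, where 3 of 4 were above background. With its hypoxia-SU5416 signals raised to background, mean Cyp2a1 was 1.34-fold lower in hypoxia-SU5416 than in normoxia (adjusted p = 0.267, limma). In the same way it was 1.53-fold lower than in hypoxia (adjusted p = 0.442, limma). Neither fold allows for the spread between arrays. A probe set that Cyp2a1 shares with Cyp2a2 averaged 6.79 in hypoxia-SU5416, 6.85 in hypoxia and 7.58 in normoxia, so in hypoxia it did not follow the probe set of Cyp2a1 alone. Probe sets of near-identical P450 genes may pick up each other's transcripts, which makes such values uncertain as to the gene.

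Cyp2u1 and Cyp3a9 completed the P450 enzymes that separated hypoxia-SU5416 from hypoxia on the low side in these families. Cyp2u1, a fatty acid hydroxylase, had 8.09, 8.22 and 8.27 in hypoxia-SU5416, 8.44, 8.48, 8.65 and 8.57 in hypoxia, and 8.44, 8.51, 8.33 and 8.45 in normoxia. The hypoxia-SU5416 arrays were the lowest, by a narrow margin: the difference was -0.34 against hypoxia (SE 0.10, adjusted p = 0.465) and -0.24 against normoxia (SE 0.10, adjusted p = 0.364). Cyp3a9, a rat member of the main drug-metabolising subfamily, had 7.57, 8.06 and 8.13 in hypoxia-SU5416, 8.21, 8.55, 8.60 and 8.81 in hypoxia, and 8.04, 8.56, 8.27 and 8.20 in normoxia. Hypoxia-SU5416 lay below every hypoxia array, at -0.62 (SE 0.19, 1.54-fold lower, adjusted p = 0.501), but overlapped with normoxia.

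Cyp2f4 and Cyp2a3, which are among the P450 enzymes known from club cells, varied more between normoxia arrays than between groups. Cyp2f4, which activates naphthalene, had 10.72, 10.38 and 10.32 in hypoxia-SU5416, 10.64, 11.22, 10.96 and 10.74 in hypoxia, and 10.45, 11.27, 10.42 and 8.35 in normoxia. Normoxia array 4 was the single low array, and the groups overlapped. The difference of hypoxia-SU5416 from normoxia was 0.35 (SE 0.54, adjusted p = 0.835), and it was -0.24 without normoxia array 4 but 1.09 without normoxia arrays 1 and 2, those with the wide beta-actin gap. Hypoxia differed from normoxia by 0.77 (SE 0.50, adjusted p = 0.604), by 0.18 without array 4, and by 1.51 without arrays 1 and 2. None of these was called.

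Cyp2a3, which activates tobacco nitrosamines in rat airways, had 10.72, 9.98 and 10.11 in hypoxia-SU5416, 9.44, 11.43, 11.57 and 10.85 in hypoxia, and 10.35, 12.01, 9.56 and 7.97 in normoxia. Normoxia held both its highest and its lowest value, over a range of 4.05. Hypoxia-SU5416 differed from normoxia by 0.30 (SE 0.83, adjusted p = 0.914), by -0.37 without normoxia array 4, and by 1.51 without normoxia arrays 1 and 2. The pooled SD within groups was 1.21 for Cyp2a3 and 0.79 for Cyp2f4, where the median over members was 0.32 and over all probe sets 0.27.

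Airway markers did not vary alike. Scgb1a1, the main secretoglobin of club cells, had 13.09, 13.36 and 13.02 in hypoxia-SU5416, 13.23, 12.85, 12.90 and 13.17 in hypoxia, and 13.87, 13.54, 13.17 and 13.29 in normoxia. It averaged highest in normoxia, was highest on normoxia array 1 and was not low on array 4. The secretoglobin Scgb3a1 had 12.65, 12.70 and 11.94 in hypoxia-SU5416, 12.25, 12.20, 12.23 and 11.99 in hypoxia, and 7.52, 12.33, 12.33 and 9.15 in normoxia. Of 9 club cell markers, 8 were measured, none below background on every array, and their summed linear signal was 16682 to 24871 in hypoxia-SU5416, 18268 to 21586 in hypoxia and 13160 to 25134 in normoxia. In hypoxia-SU5416 against normoxia 7 of the 8 averaged higher and 1, Scgb1a1, lower, with 0 called. Their mean log2 signal was lowest on normoxia array 4 (9.15) and normoxia array 1 (9.25), where Scgb3a1, Bpifa1 and Muc5b were low and Scgb1a1 was not. Cyp2f4 and Cyp2a3 were low on normoxia array 4 but not on array 1. The part of airway content in these values was not tested.

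**Figure D2:**
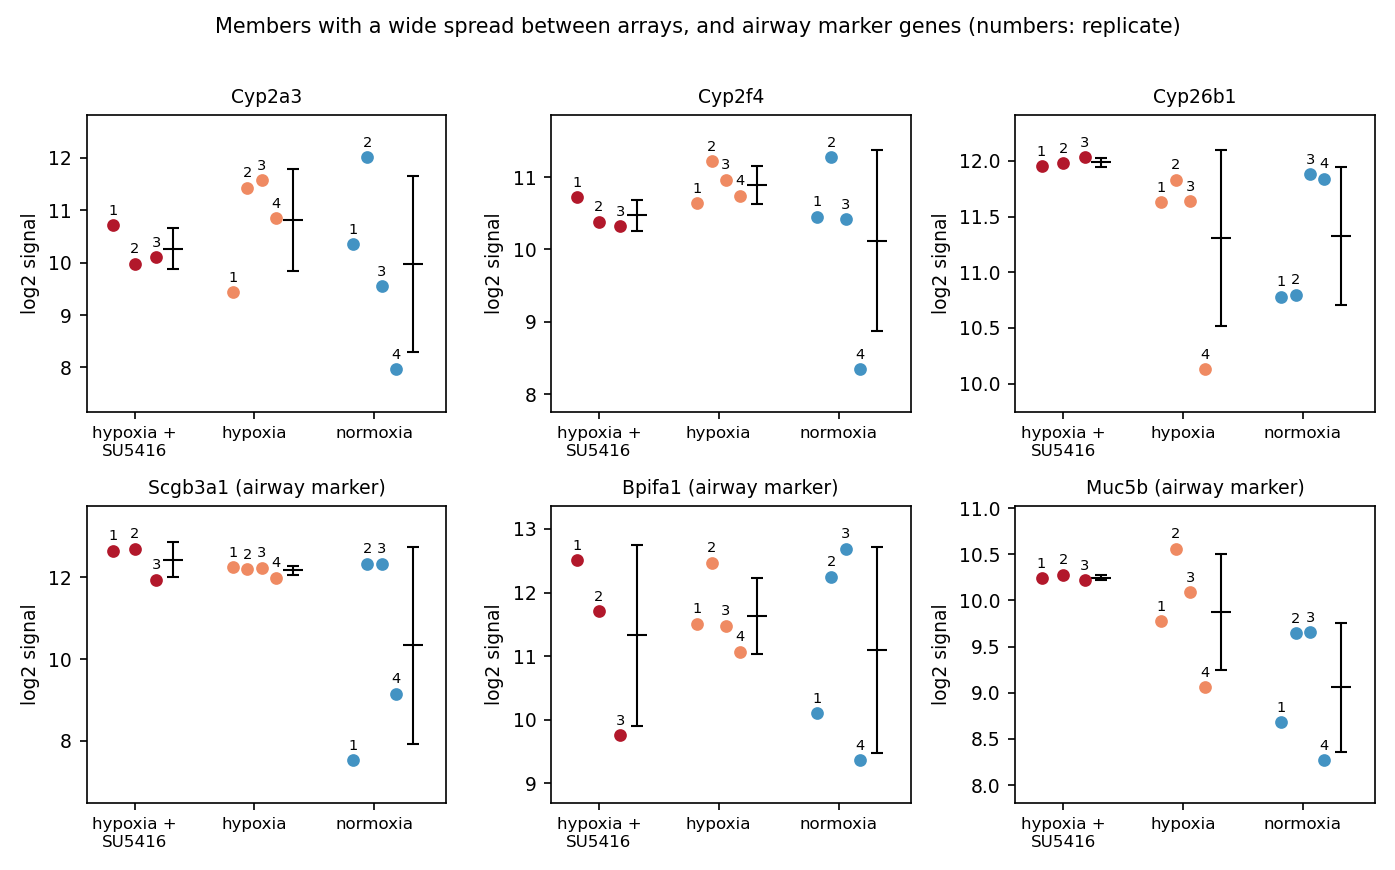
Log2 signal (y axis) of Cyp2a3, Cyp2f4 and Cyp26b1 and of the airway markers Scgb3a1, Bpifa1 and Muc5b on each array, with replicate numbers; bars are group mean and SD (hypoxia + SU5416 n = 3, hypoxia n = 4, normoxia n = 4). Normoxia array 4 is lowest for Cyp2a3 (7.97) and Cyp2f4 (8.35), and hypoxia array 4 is lowest for Cyp26b1 (10.13).

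Other P450 enzymes of these families overlapped between hypoxia-SU5416 and normoxia. Cyp2s1, an epithelial P450 and a known target of the aryl hydrocarbon receptor, averaged 8.97 ± 0.14 in hypoxia-SU5416 (SD, n = 3), 9.20 ± 0.18 in hypoxia (n = 4) and 9.08 ± 0.42 in normoxia (n = 4). Its difference of -0.11 from normoxia (SE 0.21, adjusted p = 0.877) had a 95% interval of -0.58 to 0.37. Without normoxia arrays 1 and 2, those with the wide beta-actin gap, it was 0.25. Cyp2j4, which makes epoxides of arachidonic acid, averaged 9.02 ± 0.08 in hypoxia-SU5416, 9.10 ± 0.15 in hypoxia and 8.99 ± 0.17 in normoxia. Its interval against normoxia, -0.25 to 0.31, lay within a 2-fold change. Cyp2b1, a major P450 of rat lung, has no probe set of its own, and the one it shares with Cyp2b2 averaged 12.62 in hypoxia-SU5416, 12.71 in hypoxia and 12.61 in normoxia.

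In P450 family 4, the lung enzyme Cyp4b1 showed the clearest separation. Cyp4b1 hydroxylates medium-chain fatty acids and activates several lung toxins. It had 11.53, 11.73 and 11.56 in hypoxia-SU5416, 12.13, 11.90, 11.82 and 12.35 in hypoxia, and 12.53, 12.33, 11.90 and 12.20 in normoxia. All 3 hypoxia-SU5416 arrays lay below all 8 others, and hypoxia and normoxia overlapped. Its difference was -0.63 against normoxia (SE 0.17, 1.55-fold lower, adjusted p = 0.199) and -0.44 against hypoxia (SE 0.17, 1.36-fold lower, adjusted p = 0.615). Hypoxia differed from normoxia by -0.19 (SE 0.16, adjusted p = 0.694), which ranged from -0.30 without normoxia array 3 to -0.09 without normoxia array 1. Without both normoxia arrays 1 and 2, those with the wide beta-actin gap, this difference was -0.0. In the same fit hypoxia-SU5416 differed from normoxia by -0.443. The RefSeq promoter of Cyp4b1, 250 bases before to 50 after the start at chr5:134393067-134393366 on the minus strand of GRCr8, is shown because Cyp4b1 stood lowest in hypoxia-SU5416; capitals mark a match to TGACNNNGC, the antioxidant response element, at position -22 from the start.
Cyp4b1: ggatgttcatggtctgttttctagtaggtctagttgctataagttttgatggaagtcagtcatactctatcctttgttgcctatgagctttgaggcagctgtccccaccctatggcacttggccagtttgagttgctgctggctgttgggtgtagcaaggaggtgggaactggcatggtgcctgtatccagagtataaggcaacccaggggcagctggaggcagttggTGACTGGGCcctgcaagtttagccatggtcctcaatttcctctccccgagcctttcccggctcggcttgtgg

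The remaining P450 enzymes of family 4 gave smaller or mixed values. Cyp4f6, of the subfamily that hydroxylates leukotrienes, had 8.12, 8.11 and 8.14 in hypoxia-SU5416 and 8.37 to 9.05 in normoxia, without overlap, while hypoxia spanned both at 7.71 to 8.83. Its difference from normoxia was -0.49 (SE 0.27, adjusted p = 0.488). Cyp4f4, of the same subfamily, had 6.74, 6.92, 6.72 and 6.93 in hypoxia, against 6.71, 6.58, 6.64 and 6.24 in normoxia, and the gap between these groups was narrow (0.29, SE 0.20, adjusted p = 0.631; 0.19 without normoxia array 4). Cyp4f17 was separated between hypoxia-SU5416 and hypoxia, with 7.04, 6.82 and 6.55 in hypoxia-SU5416, against 6.31, 6.52, 6.42 and 5.55 in hypoxia (0.60, SE 0.23, 1.52-fold higher, adjusted p = 0.596). Without hypoxia array 4, which was below background, it was 0.385. Cyp4a8, known from rat kidney, was also higher in hypoxia-SU5416 than in hypoxia, at 7.55, 7.73 and 7.73 against 7.41, 7.29, 7.15 and 7.40 (0.36, SE 0.14, adjusted p = 0.624). Its other probe set differed by -0.42 in the same comparison, with overlap.

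**Figure D3:**
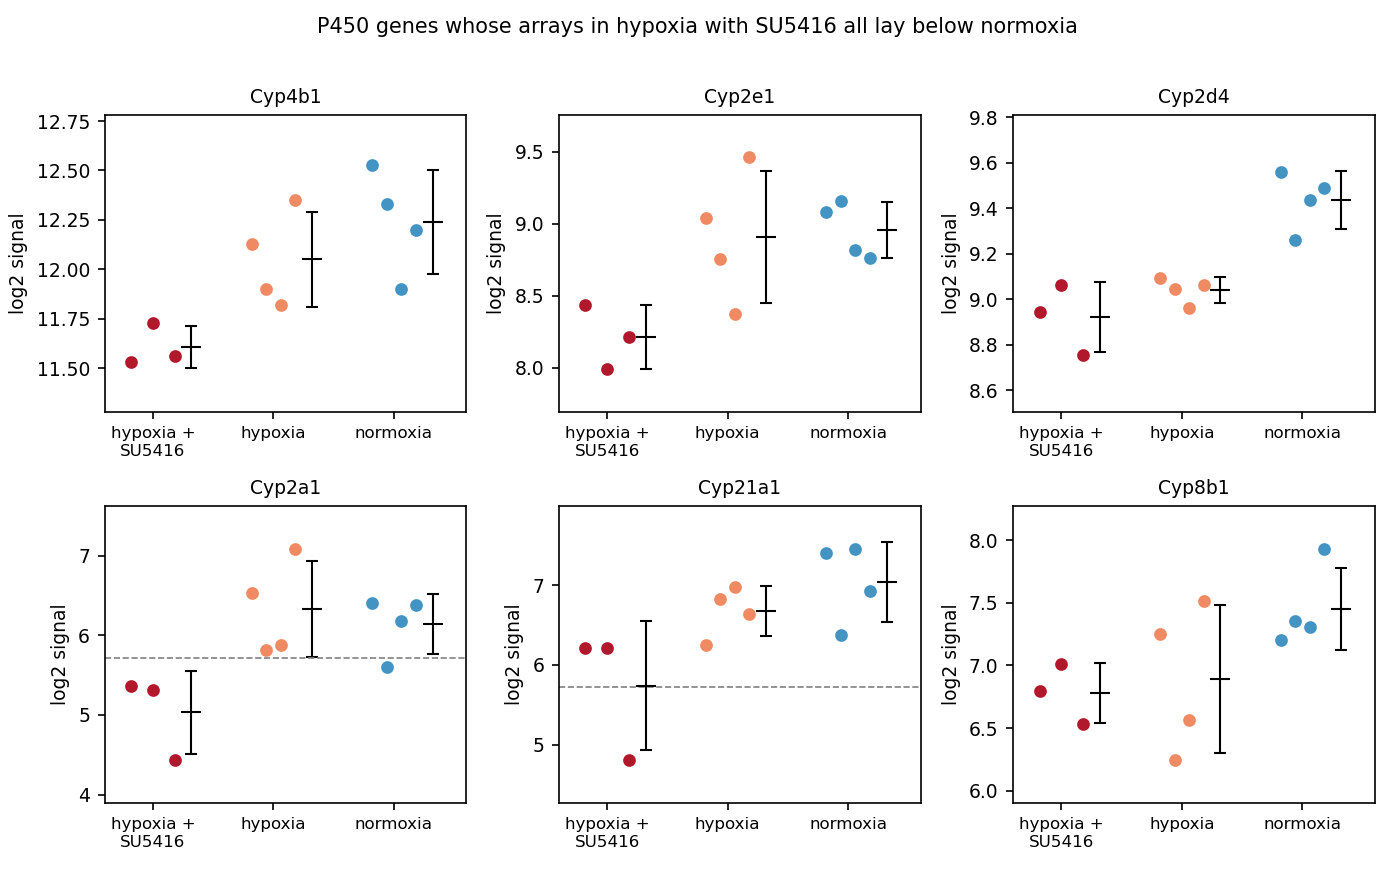
Log2 signal (y axis) on each array of 6 P450 genes whose hypoxia + SU5416 arrays (left in each panel) all lie below the normoxia arrays (right); bars are group mean and SD, and the dashed line is the background of 5.72. Cyp4b1 reads 11.53 to 11.73 with SU5416 and 11.90 to 12.53 in normoxia, while Cyp2a1 lies below background on all 3 hypoxia + SU5416 arrays.

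The other P450 families held the lowest difference of any member in hypoxia-SU5416 against normoxia. Cyp21a1, the adrenal steroid hydroxylase, had 6.21, 6.21 and 4.80 in hypoxia-SU5416, 6.25, 6.83, 6.98 and 6.64 in hypoxia, and 7.40, 6.38, 7.46 and 6.93 in normoxia. The hypoxia-SU5416 arrays lay below all others, array 3 below background. The difference was -1.30 against normoxia (SE 0.38, 2.46-fold lower, adjusted p = 0.223) and -0.94 against hypoxia (SE 0.38, adjusted p = 0.628). Leaving out single arrays gave -1.54 to -0.83 against normoxia and -1.17 to -0.47 against hypoxia, both smallest without hypoxia-SU5416 array 3. Cyp8b1, which makes cholic acid in liver, had 6.80, 7.01 and 6.53 in hypoxia-SU5416, 7.25, 6.24, 6.57 and 7.51 in hypoxia, and 7.20, 7.36, 7.31 and 7.93 in normoxia. It was separated from normoxia in hypoxia-SU5416 (-0.67, SE 0.30, 1.59-fold lower, adjusted p = 0.409) but not from hypoxia.

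Cyp2e1, Cyp2a1 and Cyp8b1 are known chiefly from liver, and markers of liver cells were read beside them. All 7 were measured, 2 of them below background on every array, and their summed linear signal was 1059 to 1539 in hypoxia-SU5416, 1584 to 1876 in hypoxia and 1588 to 2034 in normoxia. Albumin (Alb) had 8.17, 7.70 and 7.80 in hypoxia-SU5416, 8.08, 8.28, 8.46 and 8.08 in hypoxia, and 8.52, 7.52, 8.84 and 9.42 in normoxia. Serpina1, the brightest of the 7, had 9.22, 9.06 and 9.87 in hypoxia-SU5416. It had 10.14, 9.93, 10.12 and 9.79 in hypoxia and 9.63, 10.06, 10.25 and 9.45 in normoxia. All groups overlapped for Serpina1 and for Ttr, which differed from normoxia by -0.01 in hypoxia-SU5416. The 7 markers all averaged lower in hypoxia-SU5416 than in normoxia (median -0.14). Against hypoxia 5 averaged lower and 2 higher. No liver marker was called (adjusted p for Alb against normoxia 0.476, limma), and the part of such transcripts in the P450 values was not tested.

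Cyp26b1 and Cyp27a1 stood higher in hypoxia-SU5416 than in both other groups. Cyp26b1, which breaks down retinoic acid, had 11.95, 11.98 and 12.03 in hypoxia-SU5416, 11.63, 11.83, 11.64 and 10.13 in hypoxia, and 10.78, 10.80, 11.88 and 11.84 in normoxia. The margin over the highest array of each other group was small, and the mean differences of 0.66 against normoxia (SE 0.43, adjusted p = 0.562) and 0.68 against hypoxia (SE 0.43, adjusted p = 0.795) rested on low single arrays. Those arrays were normoxia 1 and 2 and hypoxia 4; without normoxia arrays 1 and 2 the difference from normoxia was 0.13, and without hypoxia array 4 that from hypoxia was 0.29. Its second probe set was low on the same arrays, with 7.42 and 7.80 on normoxia arrays 1 and 2 and 7.16 on hypoxia array 4, against 9.24, 9.16 and 9.30 in hypoxia-SU5416. Normoxia arrays 1 and 2 are also those with the wide beta-actin gap, whose part in these values was not tested.

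Cyp27a1, which oxidises the side chain of sterols and is abundant in macrophages, had 9.88, 10.09 and 9.91 in hypoxia-SU5416, 9.52, 9.76, 9.87 and 9.65 in hypoxia, and 9.74, 9.83, 9.67 and 9.71 in normoxia. Hypoxia-SU5416 lay above both other groups, over hypoxia by the narrowest of margins, 9.88 against 9.87. The difference was 0.23 against normoxia (SE 0.11, 1.17-fold higher, adjusted p = 0.449) and 0.26 against hypoxia (SE 0.11, adjusted p = 0.644). Macrophage markers were mixed. Of 8, 7 were measured, and 6 of them averaged higher in hypoxia-SU5416 than in normoxia. C1qa, C1qb and C1qc stood 1.37, 1.75 and 1.62 over normoxia without overlap (adjusted p = 0.0555, 0.113 and 0.0555, limma). They also lay above hypoxia without overlap, by 1.28, 1.55 and 1.27. Mrc1 differed from normoxia by 0.62 without overlap, Cd68 by 0.69 with overlap and Csf1r by 0.02 with overlap. Adgre1 was lower without overlap, by -0.87 against normoxia (adjusted p = 0.105) and -0.64 against hypoxia (adjusted p = 0.442). In hypoxia against normoxia 6 of the 7 markers averaged higher, while Cyp27a1 differed by -0.04. The markers' summed linear signal was 10546 to 14991 in hypoxia-SU5416, 8480 to 9316 in hypoxia and 5912 to 9862 in normoxia. None of the 7 was below background on every array or called, and the part of macrophage content was not tested. Cyp20a1, a P450 without a settled substrate, averaged 10.23 in hypoxia-SU5416, 10.26 in hypoxia and 10.22 in normoxia, and its 95% interval against normoxia was -0.20 to 0.23.

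Markers of other lung cells were read as well. All 6 smooth muscle markers averaged higher in hypoxia-SU5416 than in normoxia, with summed linear signals of 17778 to 20128 in hypoxia-SU5416, 10345 to 15705 in hypoxia and 10556 to 13838 in normoxia. Of 7 fibroblast markers, 6 were measured and all 6 averaged higher, with sums of 21947 to 22922 in hypoxia-SU5416, 14914 to 21836 in hypoxia and 12843 to 20686 in normoxia. No marker of either list was called or lay below background on every array, and their part in the members' values was not tested.

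The glutathione transferases, which conjugate reactive compounds, were the family measured most closely. Their 95% interval lay within a 2-fold change for 19 of 22 probe sets in each comparison. Gstp1, the pi-class enzyme of airway epithelium and a known Nrf2 target, had 12.48, 12.22 and 12.46 in hypoxia-SU5416, 12.26, 11.91, 12.00 and 12.28 in hypoxia, and 11.88, 12.32, 11.90 and 11.99 in normoxia. The groups overlapped through normoxia array 2. The difference was 0.36 against normoxia (SE 0.15, 1.29-fold higher, adjusted p = 0.357) and 0.27 against hypoxia (SE 0.15, adjusted p = 0.754). The promoter of Gstp1 (RefSeq, GRCr8, chr1:210769656-210769955, minus strand) is shown because it holds both motifs searched: capitals mark GCGTG, the core bound by the aryl hydrocarbon receptor, read as CACGC on the other strand, and TGACNNNGC at position -61.
Gstp1: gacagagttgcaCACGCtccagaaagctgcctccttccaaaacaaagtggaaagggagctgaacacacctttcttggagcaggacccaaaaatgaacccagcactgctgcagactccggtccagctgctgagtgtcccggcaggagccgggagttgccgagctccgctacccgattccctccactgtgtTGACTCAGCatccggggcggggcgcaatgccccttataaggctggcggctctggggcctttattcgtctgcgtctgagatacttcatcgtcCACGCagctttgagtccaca

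The mu-class enzyme Gstm1, which detoxifies epoxides, stood higher in both hypoxic groups. It had 10.84, 10.54 and 10.66 in hypoxia-SU5416, 10.68, 10.69, 10.79 and 10.78 in hypoxia, and 10.38, 10.65, 10.32 and 9.88 in normoxia. Hypoxia lay above normoxia without overlap, by 0.43 (SE 0.15, 1.35-fold higher, adjusted p = 0.377), whereas hypoxia-SU5416 overlapped with it (0.37, SE 0.17, adjusted p = 0.398). Without the low normoxia array 4 the differences were 0.285 in hypoxia and 0.23 in hypoxia-SU5416. Gstm7, of the same class, stood on the other side, with 8.80, 8.54 and 8.55 in hypoxia-SU5416, 8.62 to 8.89 in hypoxia and 9.26, 8.96, 8.76 and 9.11 in normoxia. Its difference of -0.40 from normoxia (SE 0.14, 1.32-fold lower, adjusted p = 0.301) had overlapping arrays. Genes of this class are close in sequence, so which gene a probe set reads is uncertain.

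Gstm6l, named for its likeness to a mu-class enzyme, was dim. Signals were 6.72, 6.03 and 6.00 in hypoxia-SU5416, 5.55, 5.43, 5.61 and 4.78 in hypoxia, and 5.65, 6.85, 6.70 and 6.51 in normoxia. All hypoxia arrays were below background, as was normoxia array 1, and hypoxia lay below both other groups. With its hypoxia signals raised to background, mean Gstm6l was 1.64-fold lower in hypoxia than in normoxia (adjusted p = 0.295). In the same way it was 1.44-fold higher in hypoxia-SU5416 than in hypoxia (adjusted p = 0.57). Neither fold allows for the spread between arrays.

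Other transferases of this family overlapped between all groups. Gsta1, an alpha-class enzyme, averaged 12.19 ± 0.30 in hypoxia-SU5416, 12.11 ± 0.28 in hypoxia and 12.16 ± 0.25 in normoxia, with a 95% interval of -0.42 to 0.49 against normoxia. Gsta4, which removes the lipid aldehyde hydroxynonenal, averaged 11.71 ± 0.20 in hypoxia-SU5416, 11.85 ± 0.08 in hypoxia and 11.56 ± 0.24 in normoxia, and differed from normoxia in hypoxia-SU5416 by 0.15 (SE 0.15, adjusted p = 0.72), which ranged from 0.04 without hypoxia-SU5416 array 2 to 0.25 without normoxia array 2. Gsto1, which reduces arsenic compounds, averaged 10.89 ± 0.16 in hypoxia-SU5416, 10.75 ± 0.17 in hypoxia and 10.60 ± 0.19 in normoxia (hypoxia-SU5416 minus normoxia 0.30, SE 0.14, adjusted p = 0.436). The single transferase separated from normoxia in hypoxia-SU5416 was Gsto2 (1 of 22 probe sets, 4.55%, against 11.9% of all probe sets). It had 6.96, 6.71 and 6.95 in hypoxia-SU5416 against 7.21, 6.97, 7.12 and 7.06 in normoxia (-0.22, SE 0.13, adjusted p = 0.521, limma). Without hypoxia-SU5416 array 2 the difference was -0.14.

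**Figure D4:**
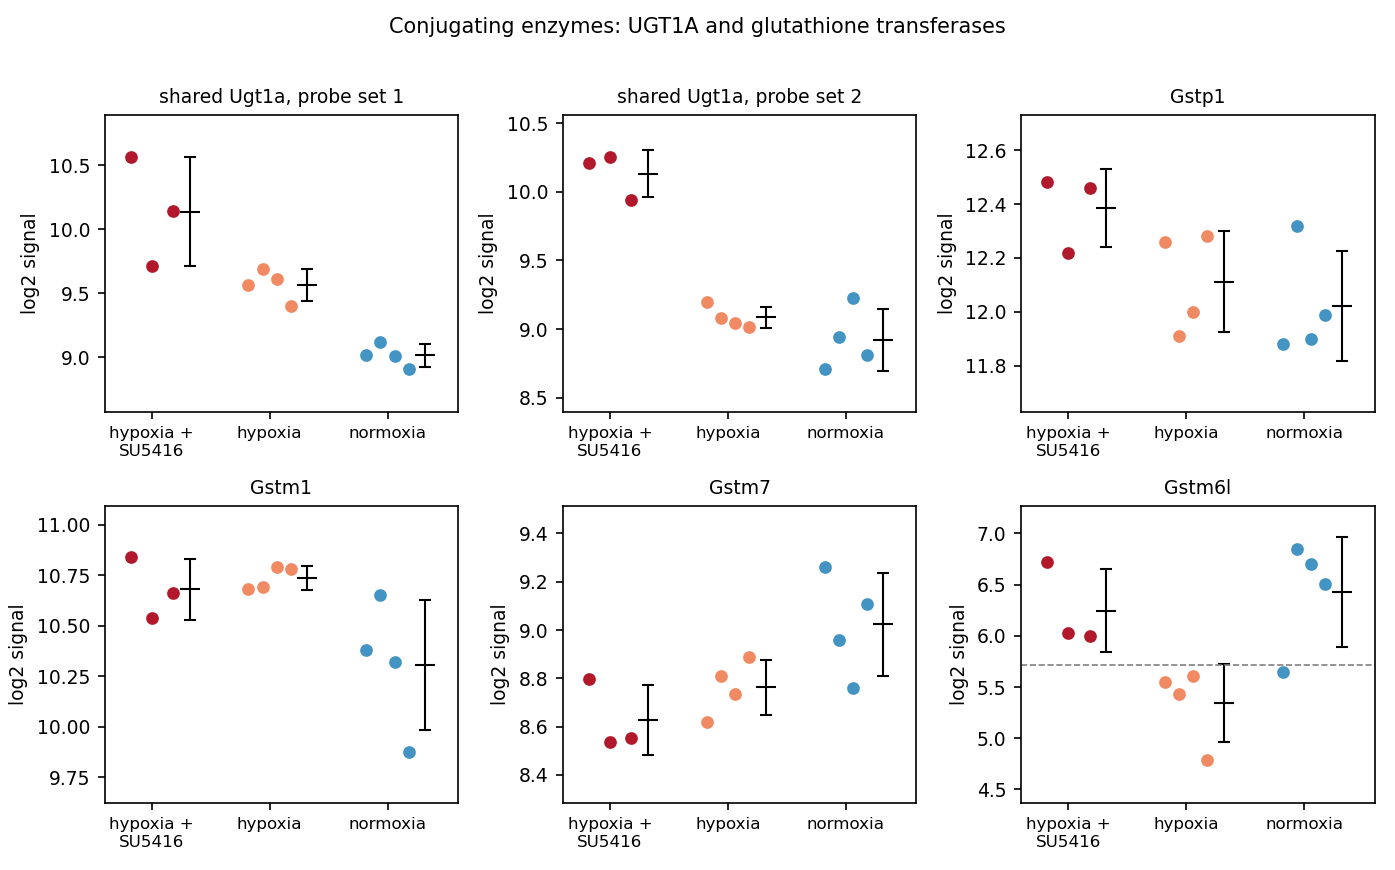
Log2 signal (y axis) on each array of the 2 probe sets shared by the Ugt1a genes and of Gstp1, Gstm1, Gstm7 and Gstm6l; bars are group mean and SD (hypoxia + SU5416 n = 3, hypoxia n = 4, normoxia n = 4), and the dashed line is the background of 5.72. On shared Ugt1a probe set 2 the hypoxia + SU5416 arrays read 9.94 to 10.25 and all other arrays 8.71 to 9.23.

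The glucuronosyltransferases with a probe set of their own were all of family 2, and most were dim. Of 9 probe sets, 4 were below background on every array, and 0 separated any groups. In hypoxia-SU5416 against normoxia, hypoxia against normoxia and hypoxia-SU5416 against hypoxia, 11.9%, 6.13% and 11.5% of all probe sets did. Ugt2a1, known from olfactory tissue, averaged 6.61 ± 0.42 in hypoxia-SU5416, 6.69 ± 0.17 in hypoxia and 6.44 ± 0.21 in normoxia. Ugt2b1, a liver enzyme, averaged 6.31 ± 0.36 in hypoxia-SU5416, 5.86 ± 0.80 in hypoxia and 5.83 ± 1.05 in normoxia, with arrays on both sides of background in the hypoxia and normoxia groups. Intervals were wide here, and lay within a 2-fold change for 3 of 9 probe sets in each comparison.

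The genes of the Ugt1a cluster, which share their last exons and differ in the first, are read by 2 probe sets that name 8 of them together and so are not members. On the second, signals were 10.21, 10.25 and 9.94 in hypoxia-SU5416, 9.20, 9.08, 9.05 and 9.02 in hypoxia, and 8.71, 8.94, 9.23 and 8.81 in normoxia. Hypoxia-SU5416 lay far above both groups, which overlapped. This probe set rose 2.31-fold in hypoxia-SU5416 over normoxia (1.21, SE 0.14, adjusted p = 0.0212), and against hypoxia it stood at 1.05 (SE 0.14, adjusted p = 0.0675). The first had 10.56, 9.71 and 10.14 in hypoxia-SU5416, 9.56, 9.69, 9.61 and 9.40 in hypoxia, and 9.02, 9.12, 9.01 and 8.91 in normoxia. There hypoxia lay between the other groups without overlap, at 0.55 over normoxia (SE 0.16, adjusted p = 0.314), and hypoxia-SU5416 at 1.12 (SE 0.18, adjusted p = 0.0605). The call on the second probe set was lost in several of the fits with an array left out, where its adjusted p ranged from 0.0102 to 0.103.

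Because the Ugt1a probe sets do not tell the first exons apart, which of the genes moved cannot be read from these arrays. RefSeq promoters of 7 of the 8 genes were at hand, all on the plus strand of chromosome 9 (GRCr8), and 4 of them hold GCGTG while 0 hold TGACNNNGC. A pair is printed to show one with and one without a match. Ugt1a6 (chr9:96194768-96195067) encodes the main enzyme for small phenols and has GCGTG at position -133, in capitals, and Ugt1a1 (chr9:96248893-96249192) encodes the bilirubin enzyme and has no match in this window.
Ugt1a6: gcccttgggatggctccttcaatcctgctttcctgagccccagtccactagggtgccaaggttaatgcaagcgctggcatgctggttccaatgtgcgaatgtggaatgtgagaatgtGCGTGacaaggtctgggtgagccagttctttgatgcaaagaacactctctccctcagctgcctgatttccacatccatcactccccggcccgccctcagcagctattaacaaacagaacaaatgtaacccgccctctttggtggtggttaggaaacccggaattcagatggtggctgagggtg
Ugt1a1: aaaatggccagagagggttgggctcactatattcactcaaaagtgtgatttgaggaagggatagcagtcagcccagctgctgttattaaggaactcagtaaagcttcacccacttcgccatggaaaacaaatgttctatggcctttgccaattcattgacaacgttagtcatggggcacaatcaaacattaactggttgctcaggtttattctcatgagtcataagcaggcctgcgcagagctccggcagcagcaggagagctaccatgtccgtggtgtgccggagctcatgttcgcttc

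Promoters of the same 300 bases were at hand for 80 of the 97 member genes and were searched on both strands. GCGTG was present in 18 of 80 (22.5%), against 31.1% of the 27457 rat promoters. TGACNNNGC was present in 11 (13.8%), against 12.2% of all. A match describes the letters in this window and does not show binding.

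The sulfotransferases attach sulfate to phenols, steroids and thyroid hormone. Of their 15 probe sets, 0 separated hypoxia-SU5416 from normoxia, against 11.9% of all probe sets. In hypoxia against normoxia 1 did (6.67%, against 6.13% of all). In hypoxia-SU5416 against hypoxia 2 did (13.3%, against 11.5% of all). Sult1a1, the phenol sulfotransferase, had 12.85, 12.26 and 12.44 in hypoxia-SU5416, 12.32, 12.64, 12.47 and 12.71 in hypoxia, and 11.98, 12.89, 12.21 and 12.21 in normoxia. All groups overlapped, and its 95% interval in hypoxia-SU5416 against normoxia was -0.30 to 0.69. Sult4a1, an orphan enzyme of brain, had 7.53, 7.47 and 7.57 in hypoxia-SU5416 and 7.06, 7.39, 7.38 and 6.90 in hypoxia, without overlap (0.34, SE 0.15, 1.26-fold higher, adjusted p = 0.662). Normoxia, at 7.65, 7.25, 7.28 and 7.33, overlapped with both. The remaining separations of this family lay below background on every array and have no measured size.

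Known targets of the aryl hydrocarbon receptor or Nrf2 were read as a list. Of 15 such genes listed within these families, 10 had a probe set of their own, and 2 of those were below background on every array. Ugt1a1, Ugt1a6 and Ugt1a7c are listed but read only by the shared Ugt1a probe sets, which the counts below leave out. Those probe sets stood 1.12 and 1.21 over normoxia in hypoxia-SU5416 (adjusted p = 0.0605 and 0.0212, limma). Gsta2 and Gsta5 are listed too and share a probe set that the counts also leave out. It was above background only on normoxia array 2 (6.94). Its mean was 4.85 in hypoxia-SU5416, 4.94 in hypoxia and 5.52 in normoxia (hypoxia-SU5416 minus normoxia -0.67, adjusted p = 0.631, limma). In hypoxia-SU5416 against normoxia 0 of 10 were called, 7 were higher and 3 lower, and the median difference was 0.07, against -0.09 for all members and -0.04 for all probe sets. In hypoxia against normoxia 0 were called, 6 were higher and 4 lower, with a median of 0.11. In hypoxia-SU5416 against hypoxia 0 were called, 4 were higher and 6 lower, with a median of -0.05.

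Genes that work with these enzymes were read from separate lists. Of 7 redox partners 6 were measured and 0 called in any comparison. Por, the reductase that feeds electrons to microsomal P450 enzymes, had 10.50, 10.31 and 10.35 in hypoxia-SU5416, 10.30, 10.48, 10.62 and 10.54 in hypoxia, and 10.47, 10.58, 9.54 and 9.82 in normoxia, with normoxia arrays 3 and 4 low. Among 31 other enzymes of foreign compounds 28 were measured, and 1 was called, in both comparisons of hypoxia-SU5416: Nqo1, a quinone reductase, averaged 12.53 in hypoxia-SU5416, 11.18 in hypoxia and 11.25 in normoxia, and rose by 1.29 over normoxia (SE 0.11, adjusted p = 0.00242) and by 1.35 over hypoxia (SE 0.11, adjusted p = 0.000923). Of the suppliers of cosubstrates 8 of 10 were measured, of the exporters 6 of 7, and of the nuclear receptors and their partners 9 of 10, with 0 called in any comparison.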

How the data were processed

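Total RNA of 11 rat lung samples was labelled and hybridised to Affymetrix arrays. The authors deposited log2 signal values, 1 per probe set and array; per the submitters' processing notes they were made with RMA, with no version given. The distributions differ in shape between arrays, and the linear mean trimmed by 2% at each end is 500 on every array, so it is uncertain how they were summarised. They were used as deposited. Arrays were grouped by their titles and descriptions; no 2 arrays were copies of one another.

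Of 31099 probe sets, 57 array controls were set aside. Probe sets were named from the annotation of the array, and 106 of the 107 members had a current gene record, with 0 changed symbols. A further 11 probe sets name several genes of these families and were kept apart. All arrays entered 1 limma fit (limma 3.58.1, R 4.3.3; lmFit and eBayes; a mean per group, 3 contrasts, 8 residual degrees of freedom), two-sided, with Benjamini-Hochberg adjustment over 31042 probe sets. The median standard error of a member difference was 0.22 to 0.23. A fold against a group below background on every array was computed between group means with that group's signals raised to 5.72. It is a lower bound only for signals below background, and does not allow for the spread between arrays.

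Genes were named if called, or if their arrays did not overlap between groups and a mean was above background (up to 6 per direction and contrast, 1 probe set per gene), or if on a list of 66 enzymes, 57 of them measured. Genes that are named outside these rules were chosen after their values were seen: Cyp3a2, Nqo1, Por, the shared Ugt1a, Cyp2a, Cyp2b and Gsta probe sets, and the markers Scgb1a1, Scgb3a1, Bpifa1, Muc5b, Alb, Serpina1, Ttr, C1qa, C1qb, C1qc, Mrc1, Cd68, Csf1r and Adgre1. The members and all lists were chosen with earlier results of these data known. Same-numbered arrays of different groups deviated from their group means with correlations of -0.125 to 0.128. Arrays of different numbers had -0.128 to 0.139. These values show no pairing by replicate number but cannot exclude one. The alternatives are given at the end. The fit was tested on simulated data. Promoters came from RefSeq (GRCr8). Python 3.11.15 was used for tables (pandas 2.3.3, numpy 2.4.6) and for figures (matplotlib 3.10.9).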

Additional observations from a re-analysis of the deposited data

Results flagged for a closer look

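For 5 genes a single array stood apart from the other 3 of its group by a gap above the 95% critical value of Dixon's test. In all, 128 groups of 4 arrays were examined over 64 genes, and chance flags about 1 in 20 groups, or 6 here. Cyp26b1, which breaks down retinoic acid, had 10.13 on hypoxia array 4, where the other hypoxia arrays had 11.63 to 11.83. Cyp4a1, a fatty acid hydroxylase, had 6.137 on normoxia array 2, where the other normoxia arrays had 7.187 to 7.354. Sult1c2, a sulfotransferase of phenols, had 6.98 on normoxia array 1, where the others had 6.051 to 6.084. Sult2b1, a sterol sulfotransferase, had 4.48 on normoxia array 2, where the others had 5.30 to 5.388, all below background. Sult5a1 had 9.263 on normoxia array 4, where the others had 9.366 to 9.381, a gap that is small in itself. The normoxia arrays 1 and 2 are those with the wide beta-actin gap, whose part was not tested.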

How the results depend on the processing

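Values were centred or quantile-normalized, dim probe sets left out, only the groups compared fitted, variance models, array weights and the threshold (0.1) varied, 1 probe set per gene kept, replicate numbers entered as a block, and arrays left out. The count of called members stayed at 0 in all of them, leave-one-out fits included (0 to 0), with 1 exception: with the probe sets below the median of all left out, where 35 members were tested, 1 was called in hypoxia-SU5416 against normoxia, Cyp2d4 (-0.515, adjusted p = 0.0393). With single arrays left out, the median member difference ranged from -0.159 to -0.032 in hypoxia-SU5416 against normoxia, from -0.163 to -0.048 in hypoxia against normoxia, and from -0.081 to 0.064 in hypoxia-SU5416 against hypoxia. Members at an unadjusted p below 0.05 numbered 6 with centring, 5 with the filter at the median and 16 without normoxia array 2 in hypoxia against normoxia, and 6 with that filter in hypoxia-SU5416 against hypoxia. These counts too stand without the shares of all probe sets in the same fits. In hypoxia-SU5416 against normoxia the direction turned for Cyp2a3 (-0.029 with the replicate block; -0.368 to 0.981 with single arrays left out, the lowest without normoxia array 4), Cyp2f4 (-0.24 to 0.735, the lowest without normoxia array 4) and Cyp2s1 (-0.271 to 0.017, with 0.017 without normoxia array 1 and 0.005 without array 2, and 0.248 without both); none of these was called in any fit. The count of all probe sets called in that comparison was 19, and 6 with the replicate block, 8 with only the groups compared, 32 with array weights, 43 with quantile normalization, 58 with the filter at background, 66 with 1 probe set per gene, 145 with trend and robust options and 214 with the filter at the median; it was 8 without normoxia array 4 or hypoxia array 3 and 38 without hypoxia array 4. In hypoxia against normoxia it was 2, with 14 without hypoxia array 4 and 99 without normoxia arrays 1 and 2. In hypoxia-SU5416 against hypoxia it was 8, with 14 to 16 under 6 other settings and 24 with array weights. The call of the second shared Ugt1a probe set was lost with only the groups compared (adjusted p = 0.137), without normoxia array 2 (0.0575), normoxia array 4 (0.0707), hypoxia array 3 (0.0577), hypoxia-SU5416 array 1 (0.103) or hypoxia-SU5416 array 2 (0.0613), and without both normoxia arrays 1 and 2 (0.067). Against hypoxia its adjusted p, 0.0675 as reported, passed the threshold in 7 fits (lowest 0.011), and that of the first probe set against normoxia, 0.0605 as reported, in 4 (0.0115 to 0.0388). The replicate block, for which the labels give no pairing, took the adjusted p of the second against normoxia to 0.187, and the median member differences with the block were -0.023, -0.074 and 0.018. The cause of these shifts was not tested. The number of arrays limits the precision, and signals below background have no size.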
